A study of Mus musculus with 6 samples.

Results

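TEAD transcription factors, their coactivators YAP and TAZ, and 3 genes that respond to mechanical stretch were examined in H3K27ac ChIP-seq of mouse quadriceps. H3K27ac, the acetylation of lysine 27 of histone H3, marks active promoters and enhancers. The members were the 9 genes Tead1, Tead2, Tead3, Tead4, Yap1, Wwtr1, Ankrd1, Ankrd2 and Csrp3, and every promoter or distal peak that the annotation in the peak lists assigned to them was taken. These were 50 of 46988 peaks in control muscle and 45 of 40721 peaks in detrained muscle, and the whole series had peaks at 15642 genes. The control mice were sedentary, and the detrained mice had run on a wheel for 4 weeks, starting at 8 weeks of age, before the wheel was removed for the last 72 h. All mice were labelled wild type, and the labels give the strain as C57BL/6 for the H3K27ac libraries, while the inputs carry the strain labels C57BL/7 and C57BL/8. Each group had 2 H3K27ac libraries, each from a single quadriceps of a single male mouse, and 1 input library. The H3K27ac libraries had totals of 20805019 to 22400894 tags, and those of the inputs were 10812470 for control and 21298438 for detrained muscle.

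TEAD factors bind DNA at the M-CAT element and have little activity without a coactivator. YAP, the product of Yap1, and TAZ, the product of Wwtr1, are the coactivators that Hippo kinases hold in the cytoplasm and that enter the nucleus when the pathway is quiet or the cell is under tension. In skeletal muscle, M-CAT elements lie in promoters of contractile genes, and TEAD4 is a target of the myogenic factor MyoD. Ankrd1 encodes CARP and Ankrd2 encodes ARPP, ankyrin repeat proteins that bind titin in the sarcomere and also enter the nucleus. Csrp3 encodes muscle LIM protein, a component of the Z-disc known as a cofactor of MyoD and as part of the stretch response of striated muscle.

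The promoters are shown first, because the members differed in the elements they held. RefSeq promoter windows on GRCm38, which is mm10, ran from 250 bases before to 50 bases after a start site and were found for 7 of the 9 members, as 11 windows, some of which overlap each other. The M-CAT core CATTCC, searched on both strands, occurred in 6 of these 11 windows and in 14.7% of all 32851 promoter windows. The 6 windows belonged to 4 genes, namely Ankrd1, Tead3, Yap1 and Wwtr1, and those of Tead3 and Wwtr1 overlap. The E-box CANNTG is a general core, bound by MyoD and by other factors, and a match does not tell which. It was in 5 of the 11 windows and in 72.3% of all windows, and those with it belonged to Ankrd1, Ankrd2, Csrp3 and Yap1. No M-CAT match overlapped an E-box match in these windows. The AP-1 element TGANTCA was in 7.81% of all windows and in 0 of the 11 windows of the members. Only the 250 bases before each start site are printed, 5′ to 3′ on the strand of the gene, with CATTCC or its reverse complement and E-boxes in capitals.
Ankrd1 promoter, chr19:36119845-36120094: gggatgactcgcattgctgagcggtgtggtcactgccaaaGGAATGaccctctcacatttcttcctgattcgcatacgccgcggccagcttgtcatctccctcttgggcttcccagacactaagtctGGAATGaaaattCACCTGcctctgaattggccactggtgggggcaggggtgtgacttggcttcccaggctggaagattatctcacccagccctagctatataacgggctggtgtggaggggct
Yap1 promoter, chr9:8004597-8004846: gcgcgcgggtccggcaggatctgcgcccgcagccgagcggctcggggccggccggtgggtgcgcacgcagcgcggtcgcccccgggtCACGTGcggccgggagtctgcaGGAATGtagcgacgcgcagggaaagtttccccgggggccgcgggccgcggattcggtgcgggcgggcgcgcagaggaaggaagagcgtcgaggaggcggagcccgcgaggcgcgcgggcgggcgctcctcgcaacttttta
Wwtr1 promoter, chr3:57575911-57576160: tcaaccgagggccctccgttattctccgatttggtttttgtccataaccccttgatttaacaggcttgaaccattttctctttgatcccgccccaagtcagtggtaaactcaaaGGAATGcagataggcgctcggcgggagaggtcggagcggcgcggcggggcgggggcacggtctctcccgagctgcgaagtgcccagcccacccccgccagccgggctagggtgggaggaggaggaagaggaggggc
Ankrd2 promoter, chr19:42035777-42036026: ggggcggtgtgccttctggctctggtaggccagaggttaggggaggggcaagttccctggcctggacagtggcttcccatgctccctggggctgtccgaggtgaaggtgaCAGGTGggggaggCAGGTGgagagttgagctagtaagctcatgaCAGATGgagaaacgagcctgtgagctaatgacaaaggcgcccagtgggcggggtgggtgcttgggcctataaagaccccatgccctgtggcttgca
Csrp3 promoter of the upstream start, chr7:48848052-48848301: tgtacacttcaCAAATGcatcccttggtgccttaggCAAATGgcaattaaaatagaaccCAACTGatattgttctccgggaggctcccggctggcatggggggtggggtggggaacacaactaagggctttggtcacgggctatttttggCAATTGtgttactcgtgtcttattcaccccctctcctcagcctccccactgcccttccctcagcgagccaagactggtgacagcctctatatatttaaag
Csrp3 promoter of the internal start, chr7:48843672-48843921: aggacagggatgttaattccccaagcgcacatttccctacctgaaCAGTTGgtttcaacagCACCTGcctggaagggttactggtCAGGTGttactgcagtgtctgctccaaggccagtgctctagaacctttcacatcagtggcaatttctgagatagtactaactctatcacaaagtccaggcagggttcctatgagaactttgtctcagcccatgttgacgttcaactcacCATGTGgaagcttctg

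Ankrd1 and Ankrd2, which are paralogs, thus carried different elements in front of their start sites, with 2 M-CAT matches and 1 E-box in the Ankrd1 window and 3 E-boxes with no M-CAT match in the Ankrd2 window. Csrp3 has a second start site inside the first intron of its longest transcript, and neither window held CATTCC, whereas they held 5 and 4 E-boxes. A match describes these letters in this window and is not a bound site. Across whole peaks, CATTCC occurred 0.638 times per kb in the control peaks of the members, compared with 0.587 per kb over all control peaks. The corresponding densities were 0.623 and 0.587 per kb in the detrained lists. In the central 300 bases, 14 of 50 control and 9 of 45 detrained peaks of the members held CATTCC, and the shares over all peaks were 15.7% and 15.6%.

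In control muscle, 8 of the 9 members had at least 1 peak, and in detrained muscle all 9 had. By the annotation, 40 control and 37 detrained peaks were intronic, 4 peaks in each list were intergenic, and 3 control and 2 detrained peaks were classed as promoter. A peak is classed by its centre, so broad peaks over a start site can be classed as intron or exon. When any peak that covered or lay within 1 kb of a RefSeq start site was taken instead, 7 members had one in control and 8 in detrained muscle. Tags per library were estimated by sharing out each peak's pooled tags between both libraries of the group, and are given per 10000000 total tags. At weak peaks the values used for this sharing draw the libraries of a group together. SDs are then too small and libraries overlap less readily, which bears most on genes with weak peaks such as Csrp3 and Ankrd1. The lists were normalized separately and hold 2 libraries per group, so no test between groups was made, and a difference is described by whether the detrained libraries fell together above or below the whole range of the controls. In whole muscle, fewer cells of a type and less acetylation per cell cannot be told apart.

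Over the summed tags of all its peaks, Csrp3 stood furthest above control among the 8 members with peaks in both lists, Tead4 and Ankrd2 were higher in detrained muscle to a lesser extent, Tead1 and Ankrd1 were lower, and the libraries of Tead3, Yap1 and Wwtr1 overlapped. Thus 3 of 8 members were higher with no overlap of libraries, compared with 24.3% of the 13524 genes with peaks in both lists, and 2 of 8 were lower, compared with 35.2%. The median log2 ratio of detrained to control was -0.02 over the 8 members and -0.05 over all these genes. The only member whose summed tags differed by at least 2-fold was Csrp3, with a log2 ratio of 0.45 per covered kb, and no member reached 2-fold per covered kb. In summed tags, a ratio of at least 2-fold is a size that 3.50% of all genes with peaks in both lists reached upward without overlap of libraries. With peaks taken over the gene body and 10 kb beside it instead, an assignment chosen after seeing the data, the log2 ratio of Ankrd2 was 1.02, which is also past 2-fold. That set held 1 control peak of 3324 bp and 3 detrained peaks of together 8319 bp, 1 of them assigned to Hoga1. It left out 2 control peaks and 1 detrained peak further upstream, and the share of all genes past 2-fold under it is not given. Expressed per kb of covered sequence, the sign of the log2 ratio differed from that of the summed tags at 6 of the 8 members, all but Tead4 and Csrp3. Among them were Tead1, Ankrd1 and Ankrd2, whose covered lengths differed between groups in the same direction as their summed tags.

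**Figure D1:**
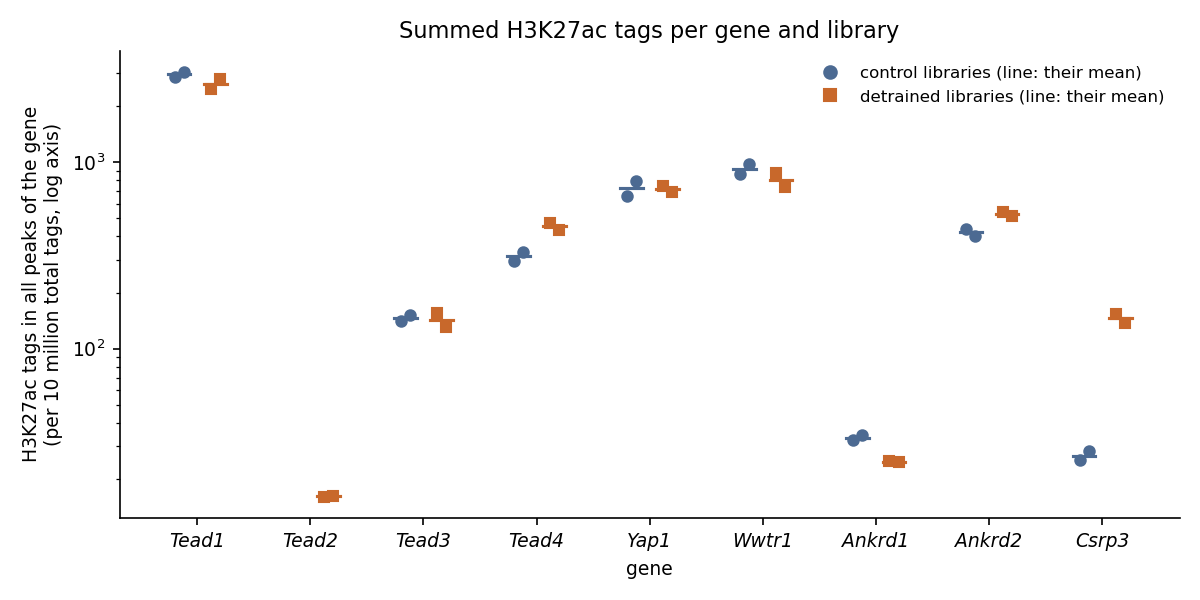
Summed H3K27ac tags (vertical log axis, per 10000000 total tags) in all peaks of each gene (horizontal axis), with a point for each library and a line for the mean of the 2 libraries of a group. Csrp3 lay at 25.3 and 28.1 in control and at 154 and 137 in detrained libraries, and Tead2 has no control point because no control peak was assigned to it.

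Among the TEAD genes, Tead1 held most of the peaks, with 23 in control and 19 in detrained muscle over a gene of 227 kb at chr7:112679318-112906807. The peak at its start site was its densest in both lists, at 81.1 tags per kb in control and 85.5 in detrained muscle, above or level with 93.4% and 94.0% of all peaks of the respective list. A second block of broad intronic peaks lay 64.4 to 111 kb downstream of the start in control muscle, and its strongest peak, centred 84.0 kb downstream, held 427.6 pooled tags. In detrained muscle the peak with most pooled tags was centred 74.2 kb downstream and held 445.1, and it overlapped 2 separate control peaks. The summed tags of Tead1 were 2871 and 3045 in the control libraries and 2469 and 2801 in the detrained libraries. Both detrained libraries were thus below both control libraries, with a log2 ratio of -0.17 and an SD between libraries of 0.10. The peaks covered 69.0 kb in control and 60.5 kb in detrained muscle, and per covered kb the log2 ratio was 0.02.

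The remaining TEAD genes had few peaks. Tead4, at chr6:128224288-128300823, had 4 control and 5 detrained peaks, all within its transcribed part or over its start site. Its summed tags were 297 and 331 in control and 473 and 434 in detrained libraries. The detrained libraries were both higher, at 1.45-fold or a log2 ratio of 0.53 with an SD of 0.10. Per covered kb the log2 ratio of Tead4 was 0.13 and the libraries overlapped, and the peaks covered 8.58 kb in control and 11.3 kb in detrained muscle. The Tead4 peak with most pooled tags in both lists was intronic, centred 47.4 kb downstream of the start, with 73.9 and 97.0 tags in control and 130 and 129 tags in detrained libraries. Its detrained form was longer, 3378 compared with 2053 bp, and per kb the log2 ratio was -0.10 with overlapping libraries. Part of the added length over the gene was an intronic peak 24.9 kb downstream of the start, at chr6:128274653-128277093, which was listed in detrained muscle with 60.7 and 59.3 tags and had no control peak over it. It held the most tags of all 11 member peaks found only in the detrained list.

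Tead3, at chr17:28331671-28350817, had 2 peaks in each list. The peak over its start site held 120 and 138 tags in control and 143 and 118 tags in detrained libraries, so that the groups overlapped. The weaker intronic peak of Tead3 differed in position between the lists. Tead2, at chr7:45215753-45233644, the TEAD gene best known from embryonic tissues, had no control peak and a single detrained peak over its start site, with 16.1 and 16.3 tags. This peak reached the tags of 11.5% of the detrained peaks, and no ratio was taken because the tags of the control libraries at that place are not in the lists. In both groups a further peak assigned to Cd37 lay within 10 kb of Tead2.

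The summed tags of both coactivator genes overlapped between groups. Yap1, at chr9:7931999-8004596, had 3 strong peaks in both lists, over its start site and 21.9 and 53.8 kb downstream in detrained muscle. The intronic peak 21.9 kb downstream held the most pooled tags, 374.5 in control and 389.3 in detrained muscle. The start-site peak of Yap1 held 215 and 259 tags in control and 266 and 221 tags in detrained libraries. The summed tags of Yap1 were 663 and 790 in control and 747 and 695 in detrained libraries, with a log2 ratio of -0.01 and an SD of 0.14.

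Wwtr1, at chr3:57455649-57575910, had 8 control and 6 detrained peaks. Its start-site peak held 286 and 328 tags in control and 322 and 238 tags in detrained libraries. Its summed tags were 869 and 980 in control and 872 and 738 in detrained libraries, and the ranges overlapped by a small margin. The log2 ratio of Wwtr1 was -0.20 with an SD of 0.15, and it was 0.17 per covered kb, with 19.7 kb covered in control and 15.3 kb in detrained muscle. An intronic peak 35.1 kb downstream, with 22.3 and 38.5 tags in the control libraries, held the most pooled tags of the 16 member peaks found only in the control list.

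**Figure D2:**
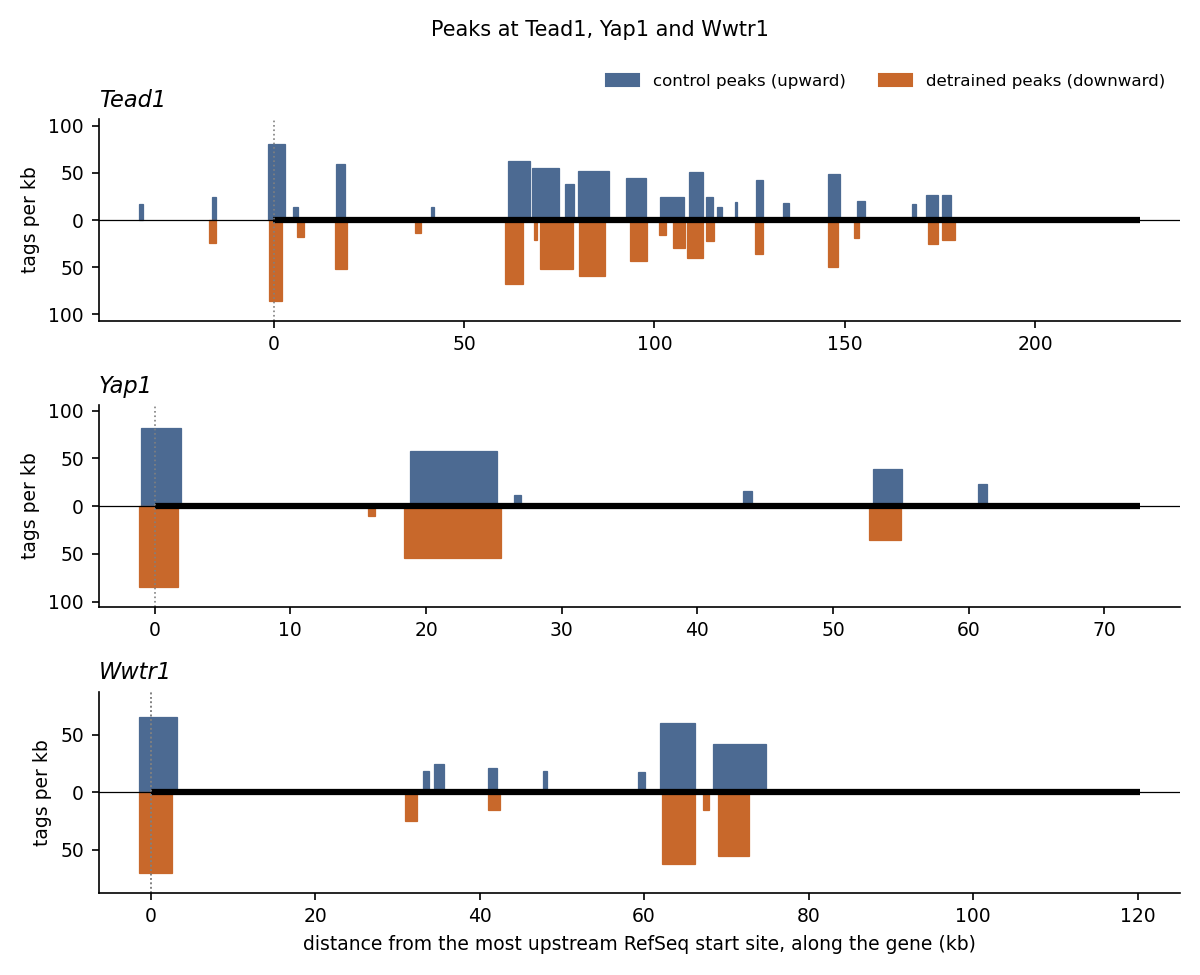
Listed peaks at Tead1, Yap1 and Wwtr1, with distance along the gene from the most upstream RefSeq start site in kb (horizontal axis) and pooled tags per kb of the peak (vertical axis, control upward and detrained downward); the black bar is the gene and the dotted lines are start sites. The strong peaks recur in both lists, such as the Yap1 peak 21.9 kb downstream with 374.5 tags in control and 389.3 in detrained muscle, and the short peaks present on only one side are low.

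The stretch-response genes differed from each other. Csrp3, at chr7:48830398-48848033 on the minus strand, had 2 weak control peaks, with 19.8 and 22.2 tags in its first intron and with 5.46 and 5.87 tags upstream of the gene. In detrained muscle it had 4 peaks. The summed tags were 25.3 and 28.1 in control and 154 and 137 in detrained libraries, 5.44-fold higher, with a log2 ratio of 2.44 and an SD of 0.11. This ratio ranked 69 among the 13524 genes with peaks in both lists. Of all shared peak pairs, 1.46% were assigned to different genes in the lists, which can move sums per gene. No peak within 10 kb of Csrp3 was assigned to another gene in either list.

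The strongest detrained peak of Csrp3, at chr7:48840270-48843947, held 93.7 and 78.3 tags and reached over the internal start site at position 48843671, whose promoter is printed above. The control peak in the same intron lay at chr7:48840203-48841462 and ended before that start site. No control peak covered or came within 1 kb of either Csrp3 start site. Peaks covered 1.76 kb in control and 7.00 kb in detrained muscle. Per covered kb, the Csrp3 level was 14.4 and 16.0 tags in control and 21.9 and 19.5 tags in detrained libraries, a log2 ratio of 0.45 with both detrained libraries higher. Tags of the control libraries in the stretches that only the detrained list covers are not in the lists. Relative to the input of its group, the intronic peak stood at log2 values of 2.76 and 2.93 in control and 2.09 and 1.83 in detrained libraries, on a shrunken scale set for each list separately, with inputs of different depth and peaks of different length, so that these values are not compared between groups. A second detrained peak of the first intron, of 24.1 pooled tags, and another 8.52 kb upstream of the gene, of 16.5 pooled tags, overlapped no control peak.

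Ankrd1, at chr19:36111961-36120099, was sparsely marked. In control muscle it had a promoter peak centred 0.64 kb upstream of the start, with 14.7 and 14.3 tags, and an intergenic peak 60.2 kb upstream, with 18.8 pooled tags. In detrained muscle it had a single peak 9.53 kb upstream, with 25.0 and 24.6 tags, which overlapped neither control peak. All 3 peaks were thus found in only 1 list. Summed tags of Ankrd1 were 32.3 and 34.3 in control and 25.0 and 24.6 in detrained libraries, but no Ankrd1 peak reached the tags of more than 25.6% of the peaks of its list, and with peaks within 10 kb of the gene alone the ratio turned upward.

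Ankrd2, at chr19:42036000-42045110, carried more acetylation than Ankrd1, with 3 peaks in each list. Its start-site peak held 102 and 103 tags in control and 116 and 124 tags in detrained libraries. The detrained peak was longer, 4280 bp compared with 3324 bp, and per kb both detrained libraries were lower, at 27.1 and 29.0 compared with 30.8 and 31.0, a log2 ratio of -0.14 with an SD of 0.05. Upstream, within an intron of the neighbouring gene Ubtd1, a detrained peak of 9.63 kb overlapped 2 control peaks that together covered 8.75 kb. This detrained peak held 398 and 369 tags, whereas the 2 control peaks together held 335 and 300 tags, a log2 ratio of 0.27, with the tags between the control peaks not counted. Set against only the first of these control peaks, centred 18.9 kb upstream of the start, it formed the Ankrd2 pair with the largest ratio, at 33.7 and 31.1 tags per kb in control and 41.4 and 38.3 in detrained libraries, a log2 ratio of 0.30 with an SD of 0.08. Over all peaks, Ankrd2 had 437 and 403 tags in control and 539 and 517 tags in detrained libraries, with a log2 ratio of 0.33 and an SD of 0.07. Per covered kb the log2 ratio was -0.01.

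**Figure D3:**
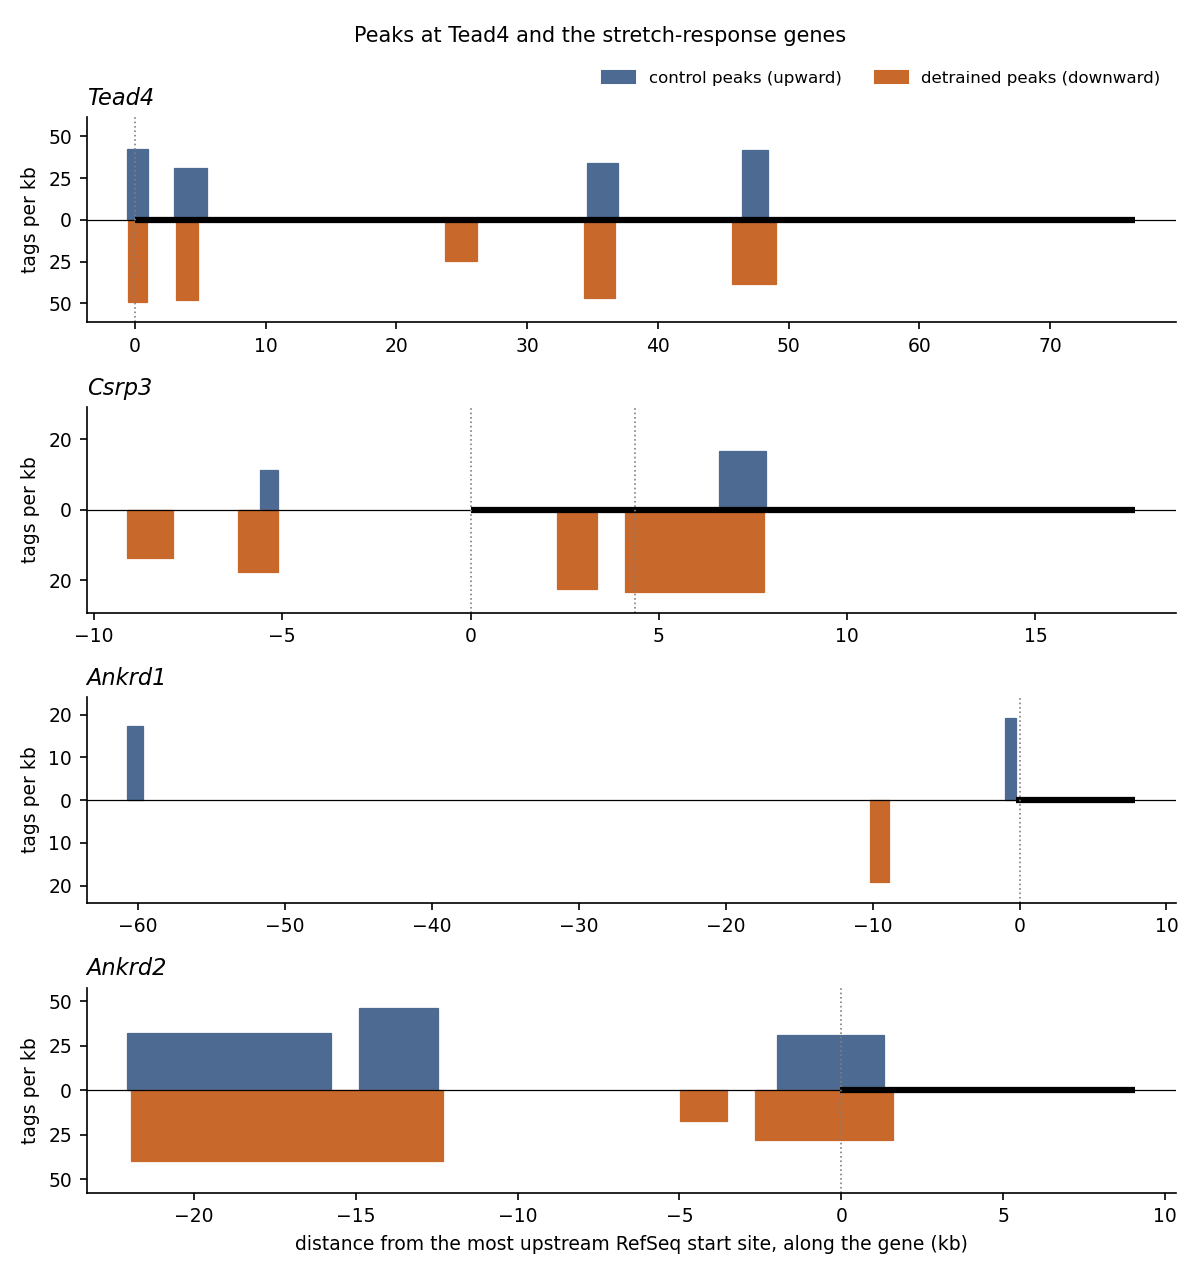
Listed peaks at Tead4, Csrp3, Ankrd1 and Ankrd2, drawn with distance along the gene from the most upstream RefSeq start site in kb (horizontal axis) and pooled tags per kb (vertical axis, control upward and detrained downward); the black bar is the gene and the dotted lines are start sites. At Csrp3 the detrained peaks cover 7.00 kb and the control peaks 1.76 kb, and at Ankrd1 no control and detrained peaks overlap.

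The central 300 bases of a pair of peaks found only in detrained muscle are printed on the plus strand, because they are the only detrained peak of Ankrd1 and the strongest member peak without a control counterpart, with the same elements in capitals. The Ankrd1 sequence held 1 M-CAT match and 2 E-boxes, and the Tead4 sequence held 5 E-boxes and no M-CAT match, while CATTCC was in 15.6% and the E-box in 76.9% of the central 300 bases of all detrained peaks.
Ankrd1 detrained peak, chr19:36129223-36129522: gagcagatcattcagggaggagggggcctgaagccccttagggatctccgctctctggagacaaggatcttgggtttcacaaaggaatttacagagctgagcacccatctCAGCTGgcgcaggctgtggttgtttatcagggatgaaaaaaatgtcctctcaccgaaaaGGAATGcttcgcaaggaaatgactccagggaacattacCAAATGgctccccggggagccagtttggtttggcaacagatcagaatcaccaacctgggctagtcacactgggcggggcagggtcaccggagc
Tead4 detrained peak, chr6:128275724-128276023: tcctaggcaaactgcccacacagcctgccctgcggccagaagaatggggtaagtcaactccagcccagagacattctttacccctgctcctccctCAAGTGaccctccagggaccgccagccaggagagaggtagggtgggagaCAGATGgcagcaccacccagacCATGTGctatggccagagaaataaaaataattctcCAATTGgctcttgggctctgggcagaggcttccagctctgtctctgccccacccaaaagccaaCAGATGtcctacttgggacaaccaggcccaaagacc

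Of the 50 control peaks of the members, 16 overlapped no detrained peak, compared with 27.9% of all control peaks. Of the 45 detrained peaks, 11 overlapped no control peak, compared with 18.0% of all detrained peaks. The control peaks without a counterpart belonged to Tead1, Tead3, Yap1, Wwtr1 and Ankrd1, and the detrained ones to all members. All were weak except the Tead4 peak described above, with at most 30.3 pooled tags in the control list and 36.1 in the detrained list, against list medians of 45.5 and 57.9 tags.

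Peaks that covered at least 50% of each other one to one gave 27 pairs of the members and 26436 pairs in all. Overlaps with less cover were allowed beside a pair. At Ankrd2 18.9 kb upstream and Tead1 71.4 kb downstream the detrained peak of the pair thus overlapped 2 control peaks. Among these, 5 member pairs had both detrained libraries below both control libraries in tags per kb, compared with 27.2% of all pairs, and 6 had both above, compared with 21.3%. The median log2 ratio was 0.02 over the member pairs and -0.03 over all pairs. No member pair differed by 2-fold, and only 20 of all 26436 pairs did. Of the 5 lower pairs, 4 were at Tead1 and 1 was the start-site pair of Ankrd2, and in tags per peak the log2 ratio turned positive at 3 of them, to 0.18 at Tead1 17.5 kb downstream, 0.30 at Tead1 177 kb downstream and 0.22 at the Ankrd2 start. Of the 6 higher pairs, 3 were at Tead4.

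At Tead4, the pair 35.8 kb downstream of the start had almost equal lengths of 2367 and 2379 bp. Its density was 35.8 and 32.9 tags per kb in control and 48.1 and 45.7 in detrained libraries, a log2 ratio of 0.45 with an SD of 0.07. The pair 4.25 kb downstream had the largest ratio of the gene per kb, with 29.2 and 32.5 tags per kb in control and 54.3 and 42.0 in detrained libraries, a log2 ratio of 0.63 with an SD of 0.20. That detrained peak was shorter, 1681 compared with 2511 bp, and in tags per peak the log2 ratio was 0.05. The start-site pair of Tead4 had a log2 ratio of 0.22, and the libraries were separated by a small margin, 45.4 in the higher control and 45.9 tags per kb in the lower detrained library. Its detrained peak was shorter, 1452 compared with 1644 bp. In tags per peak its log2 ratio was 0.04 and the libraries overlapped, at 65.0 and 74.5 in control and 76.8 and 66.4 in detrained libraries. Per kb, only the pair 47.4 kb downstream of Tead4 had overlapping libraries, with a log2 ratio of -0.10. Its detrained peak was longer, and in tags per peak the log2 ratio was 0.62 without overlap.

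At Tead1, 8 of 13 pairs had a negative log2 ratio, compared with 14277 of all 26436 pairs. The pair 111 kb downstream was the furthest below control among the Tead1 pairs whose libraries did not overlap. It had 48.2 and 53.9 tags per kb in control and 38.4 and 41.3 in detrained libraries, a log2 ratio of -0.35 with an SD of 0.10. The start-site pair of Tead1, with 88.0 and 74.1 tags per kb in control and 80.2 and 90.6 in detrained libraries, overlapped. Its detrained peak was shorter, 3285 compared with 4388 bp. In tags per peak the log2 ratio was -0.34, with 386 and 325 tags in control and 263 and 297 in detrained libraries. The 1 higher pair of Tead1 lay 64.4 kb downstream, with a log2 ratio of 0.11, and its detrained peak was shorter, 4543 compared with 5668 bp, with a log2 ratio of -0.21 in tags per peak. At Wwtr1, the pair 71.6 kb downstream was higher in tags per kb, at 38.8 and 45.3 in control and 59.6 and 52.2 in detrained libraries, a log2 ratio of 0.41 with an SD of 0.15. Its detrained peak was shorter, 3760 compared with 6486 bp, and in tags per peak the log2 ratio was -0.37. All 3 pairs of Yap1 and the single pair of Tead3 overlapped between groups. Neither Csrp3 nor Ankrd1 had such a pair.

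**Figure D4:**
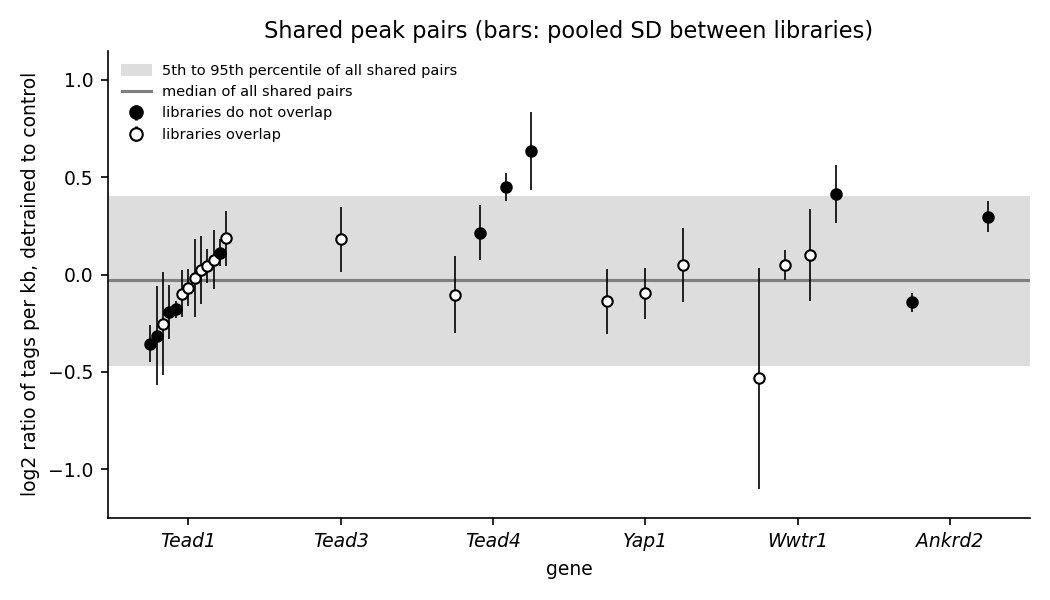
Log2 ratio of tags per kb, detrained to control (vertical axis), for each shared peak pair of the members (horizontal axis, by gene), with bars for the pooled SD between libraries, filled points where the libraries of the groups do not overlap, and the 5th to 95th percentile and median of all 26436 pairs as a grey band and line. Of 27 member pairs 5 lie below and 6 lie above control without overlap, and 3 of the higher ones are at Tead4.

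The other genes of the pathway were counted in the same way, and are read against the 24.3% higher and 35.2% lower among all genes given above. Per covered kb, 25.5% of the same 13524 genes were higher and 28.1% lower without overlap. Of 25 Hippo kinases and regulators, 24 had peaks in both lists. The summed tags of 10 were lower and 2 higher without overlap, with a median log2 ratio of -0.09. The list holds genes that act in opposite directions on the pathway, so these counts do not give a direction for YAP and TAZ. The lower genes included Sav1, the scaffold of the Hippo kinases, with 836 and 964 tags in control and 671 and 690 in detrained libraries. They also included Ajuba, a LIM protein that restrains the LATS kinases, with 196 and 198 tags in control and 159 and 133 in detrained libraries. Per covered kb the log2 ratio was -0.34 at Sav1 and 0.14 at Ajuba, and over the list 6 genes were higher and 7 lower. Of the VGLL cofactors, which bind TEAD factors in place of YAP, Vgll2 and Vgll3 were higher, Vgll4 was lower and Vgll1 had no peak. Vgll2, the form typical of skeletal muscle, had 663 and 780 tags in control and 933 and 824 in detrained libraries. The log2 ratios per covered kb were -0.07 at Vgll2, -0.10 at Vgll3 and -0.19 at Vgll4.

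Of 11 target genes of TEAD and YAP, 10 had peaks in both lists, with 3 higher, 1 lower and a median log2 ratio of 0.06. Cyr61, which encodes a matricellular protein and is a classical YAP target, had 699 and 694 tags in control and 936 and 814 in detrained libraries, whereas the libraries of Ctgf overlapped. For Cyr61 the log2 ratio per covered kb was 0.19, and over the list 2 genes were higher and 3 lower. Myh7, the slow myosin heavy chain with an M-CAT element in its promoter, had no peak in either list. Of 15 relatives and partners of the stretch-response genes, 14 had peaks in both lists, with 4 higher and 2 lower. Fhl2, a LIM-domain protein that binds titin, was the furthest from control, with 69.8 and 71.4 tags in control and 210 and 203 in detrained libraries, 2.92-fold higher over 3 control and 8 detrained peaks. As at Csrp3, covered length was larger too, and the log2 ratio of Fhl2 per covered kb was 0.02. Fhl1 was 1.70-fold higher in summed tags, with a log2 ratio of -0.05 per covered kb. Xirp1 and Xirp2, actin-binding proteins of striated muscle, were lower in summed tags, with log2 ratios of -0.15 and 0.15 per covered kb. Per covered kb, none of the 14 genes was higher and 2 were lower.

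Start sites of all 10 skeletal muscle fibre markers lay in a peak of both lists, and those of the cardiac markers Myh6 and Nppa and of the liver markers Alb and Apoa1 lay in none, although 8 control and 6 detrained peaks were assigned to Apoa1. Summed tags over the fibre markers were 8877 and 11253 in control and 10678 and 10366 in detrained libraries, with 2 higher, 1 lower and a median log2 ratio of -0.08. In tags per covered kb, 3 fibre markers were higher and 1 lower, with a median log2 ratio of 0.18. Myh4, the fast myosin heavy chain of type IIb fibres, was 10.1-fold higher by assigned peaks, with 75.1 and 83.5 tags in control and 814 and 788 in detrained libraries, with a log2 ratio of 1.89 per covered kb, although a peak covered its start site in both lists. Peaks assigned to Myh4 covered 3.76 kb in control and 10.3 kb in detrained muscle. No shared pair of any gene had a log2 ratio per kb above 1.16, so the Myh4 values do not compare the same peak in both lists. The part of peak assignment in them was not tested. Markers of other cell types were summed in the same way, and values per covered kb are given beside the sums. The 4 smooth muscle and pericyte markers summed to 870 and 946 in control and 1191 and 1114 in detrained libraries, with 3 of 4 higher and Acta2 lower. Per covered kb the log2 ratio of those higher was -0.30 at Myh11, -0.12 at Rgs5 and -0.07 at Pdgfrb, and that of Acta2 was 0.28. The 3 fibroblast and adipogenic progenitor markers summed to 1578 and 1557 in control and 1838 and 1913 in detrained libraries, with 2 higher, and per covered kb the log2 ratio was 0.26 at Pdgfra, 0.38 at Dcn and -0.12 at Col1a1. The 2 satellite cell markers summed to 179 and 173 in control and 227 and 246 in detrained libraries, and Pax7 was higher while the libraries of Myf5 overlapped, with log2 ratios per covered kb of -0.05 at Pax7 and -0.18 at Myf5. The 4 leukocyte markers summed to 161 and 126 in control and 258 and 213 in detrained libraries, where Ptprc had no control peak and Cd68 had no assigned peak in either list. Adgre1 was the only leukocyte marker with peaks in both lists that was higher, with a log2 ratio of 0.05 per covered kb. The 5 endothelial markers summed to 2226 and 2615 in control and 2899 and 2290 in detrained libraries, with 1 lower and none higher, and per covered kb 1 was higher and none lower, with a median log2 ratio of 0.11. Of 10 slow-fibre genes, chosen after values were seen, 5 had peaks in both lists and 4 of these were higher, with sums of 943 and 929 over all 10 in control and 1040 and 1016 in detrained libraries, and per covered kb none was higher and 3 were lower. The part of these cell types and fibre types in the values of Csrp3, Tead4, Ankrd2 and Fhl2 was not tested.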

How the data were processed

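H3K27ac ChIP-seq was analysed in control and detrained quadriceps, with 2 H3K27ac libraries and 1 input for each. The control columns carry other numbers than the labels and were assigned to the group only. The submitters' processing notes name Bowtie 1.2 and HOMER, with reads aligned to mm10. The authors called 1 peak list per group on both libraries against the group's input. The deposited signal per peak is the pooled tags of both libraries per 10000000 total tags. The deposited log2 values are regularized log values per library, made by the authors for each table on its own, which shrinks differences between libraries at weak peaks. The authors' columns of log2 fold change, p-value and adjusted p-value compare each peak with input, and only the log2 fold was used, to select peaks at least 4-fold over input as an alternative.

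Pooled tags were shared out between libraries in proportion to library total and 2 to the power of the log2 value. The tables give no counts per library, so no counting interval is given, and an unlisted region may still hold tags. Shared pairs covered at least 50% of each other, and 0.5 tags were added before a density was taken. The SD was pooled within groups on the log2 scale, and at weak peaks the shrinkage makes it too small and eases the condition of no overlap. No test between groups was run. Distances of 95.3% of control and 95.1% of detrained peaks to RefSeq starts on GRCm38.p6 matched the deposited ones within 20 bp. Sequences and motif matches came from RefSeq and that genome. The members and gene lists were chosen with earlier results of these data known. All members were named, with the strongest peak per list, the start-site peak and the pair with the largest ratio among those without overlap, and genes of the pathway lists were named as examples after their values were seen. Steps were tested on made-up data with known answers. Python 3.11.15, numpy 2.4.6, pandas 2.3.3, pysam and matplotlib 3.10.9 were used.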

Additional observations from a re-analysis of the deposited data

How the results depend on the processing

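In summed tags, Csrp3 and Tead4 kept a positive log2 ratio under every alternative run, from 0.45 to 2.53 at Csrp3 and from 0.13 to 0.61 at Tead4, with the lowest value of each per kb of covered length. Among values called without overlap, the log2 ratio turned to 0.019 at Tead1, 0.073 at Ankrd1 and -0.013 at Ankrd2 when taken per kb of covered length. With the peaks over the gene body and 10 kb beside it, an assignment chosen after seeing the data, the ratio turned to 0.78 at Ankrd1, went from 0.33 to 1.02 at Ankrd2, and the median over members moved to 0.28. At Ankrd2 those peaks covered 3324 bp in control and 8319 bp in detrained muscle, with 1 detrained peak assigned to Hoga1. Some shared pairs without overlap per kb changed sign in tags per peak. Their log2 ratio turned to 0.22 at the Ankrd2 start, -0.37 at Wwtr1 71.6 kb downstream, and 0.18, -0.21 and 0.30 at Tead1 17.5, 64.4 and 177 kb downstream. Pairs with overlapping libraries per kb changed sign too. Among them, the log2 ratio turned from -0.10 to 0.62 at Tead4 47.4 kb downstream and from 0.08 to -0.34 at the Tead1 start.

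With at least 80% of each peak covered, 14 member pairs remained, of which 2 were lower and 2 higher. Leaving out a library, by itself, eases the condition that libraries do not overlap, and gave 6 to 12 lower and 7 to 12 higher pairs. There were 10 lower pairs without C2 and 12 without Ex2, and 12, 12 and 10 higher pairs without C3, Ex1 and Ex2. With at least 50% of each peak covered, 18 of the 45 detrained member peaks had no control counterpart, compared with 35.1% of all detrained peaks. Members with a promoter peak numbered 7 in control and 8 in detrained muscle when a peak over or within 1 kb of a start site was counted. No paired analysis was possible because each library came from a different mouse and nothing ties a replicate number to a shared litter, batch or day. The precision is limited by 2 libraries per group.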
